A study of Mus musculus with 6 samples.

Results

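The 10 transcription factors described here, Gata3, Foxa1, Spdef, Xbp1, Myb, Elf5, Ehf, Elf3, Tfap2c and Tfap2a, are regulators of luminal mammary epithelium, and were taken by name from a table of 52636 genes. They were measured in RNAseq data from 3 biological replicates of J110 cells and 3 of SSM3 cells, 6 libraries in all. J110 cells are a mouse mammary tumour line. The animals it came from bore a transgene, AIB1 cDNA, whose promoter was the MMTV LTR, a viral element active in mammary epithelium. SSM3 cells are a mouse line from mammary tumours of the 129SvEv strain. Each line comes from a single model, neither group was treated, and SSM3 cells were grown with more serum and CO2 than J110 cells and with supplements that J110 cells did not receive, so line and culture cannot be told apart. The libraries were made from the 3′ ends of transcripts, and the question was which of these lineage factors each line expresses.

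The luminal layer of the mammary gland lines the ducts and holds hormone-sensing cells, which carry the estrogen receptor, and alveolar progenitors, which go on to make milk. GATA3 and FOXA1 open and occupy enhancers together with the estrogen receptor in hormone-sensing cells, and GATA3 is needed to keep luminal cells differentiated. ELF5 directs the alveolar programme, while EHF and ELF3 are ETS factors of epithelia in general and AP-2 factors act in both epidermal and luminal cells.

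Total counts lay between 4200785 and 5416305 per library. Levels are given as CPM, the count scaled by library size and TMM factor, and 3 counts or fewer in each of a line's libraries put a gene at the floor, which lies between 0.578 and 0.668 CPM. For Ncoa3, the gene of AIB1, J110 libraries gave 110, 106 and 102 counts and SSM3 libraries 181, 199 and 186. Libraries of 3′ ends need not count a cDNA transgene on this gene, so these counts cannot tell whether a library carries it. Each direction below rests on the labels. Of the luminal markers, Krt8 and Krt18 had at least 4223 counts in every library, while Epcam had 2, 1 and 7 counts in J110 and at least 2376 in each SSM3 library.

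Of the 10 factors, 6 had enough counts to be tested, and all 6 (Gata3, Foxa1, Xbp1, Myb, Elf3 and Tfap2a) were higher in SSM3 with no overlap between the lines. In the same test 77.9% of the 12284 genes tested differed, with 38.6% higher in SSM3 and 39.2% lower. The lines did not overlap for 79.6% of them, with SSM3 above for 39.4% and below for 40.3%. Of the 6 factors, Myb, Elf3 and Tfap2a reached the filter through the SSM3 libraries alone and could only pass it by being higher there, so the count of 6 is a description. Of the other 4, Tfap2c was counted at a low level in SSM3 and not in J110, and Spdef, Elf5 and Ehf were at the floor in both lines. In RNA from whole cultures, fewer expressing cells and less RNA per cell cannot be told apart. The median log2 fold change, SSM3 minus J110, of the 6 was 5.35, and -0.014 over all genes tested. Myb, Elf3 and Tfap2a, whose direction follows from the filter, enter that median. Gata3, Foxa1 and Xbp1, which did not depend on it, had log2 fold changes of 8.30, 1.90 and 2.39.

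**Figure D1:**
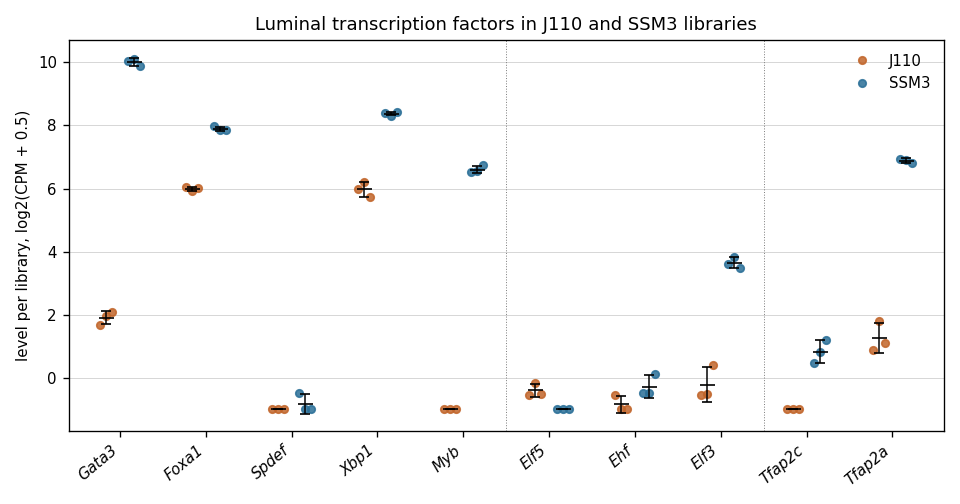
Level of each of the 10 transcription factors in each library, on a log2 scale of CPM plus 0.5, with J110 in orange, SSM3 in blue, and black bars for the mean and SD of 3 libraries on that scale. Gata3, Foxa1, Xbp1, Myb, Elf3 and Tfap2a separate the lines, and Spdef, Elf5 and Ehf lie near the bottom in both.

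Gata3 (ENSMUSG00000015619, chromosome 2 of mm10 from 9857078 to 9890034, reverse strand) encodes the zinc finger factor that maintains luminal differentiation. It had 14, 17 and 18 counts in the J110 libraries and 4790, 5210 and 4725 in the SSM3 libraries. All 3 J110 libraries were thus low and close to each other, and every SSM3 library stood far above them. Mean levels were 3.27 ± 0.534 CPM for J110 and 1038 ± 86.8 CPM for SSM3 (SD, n = 3 each), which made a log2 fold change of 8.30 by the quasi-likelihood test of edgeR, with a standard error (SE) of 0.13 and an adjusted p = 3.57e-17, and 1.52% of all genes tested had a log2 fold change at least as large. The spread between replicates, as SD over mean, was 16.3% in J110 and 8.36% in SSM3, where the median gene had 9.86% and 10.7%.

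Because the Gata3 level in J110 was only a small share of that in SSM3, it was set beside the counts that each J110 library held on genes of the other line. These genes had at least 100 CPM in SSM3 and at most 3 counts in each of the other two J110 libraries. Their summed level was 0.0703% of that in SSM3 in J110 replicate 1, 0.0402% in replicate 2 and 0.254% in replicate 3. Gata3 was at 0.260%, 0.324% and 0.362% of its SSM3 mean in the same libraries, above that summed level in each, and in replicates 1 and 2 by more than in replicate 3. Single genes of the set reached 0.234%, 0.152% and 0.584% at their 90th percentile in the same order. The part that such counts play in the J110 level of Gata3 was not tested.

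**Figure D2:**
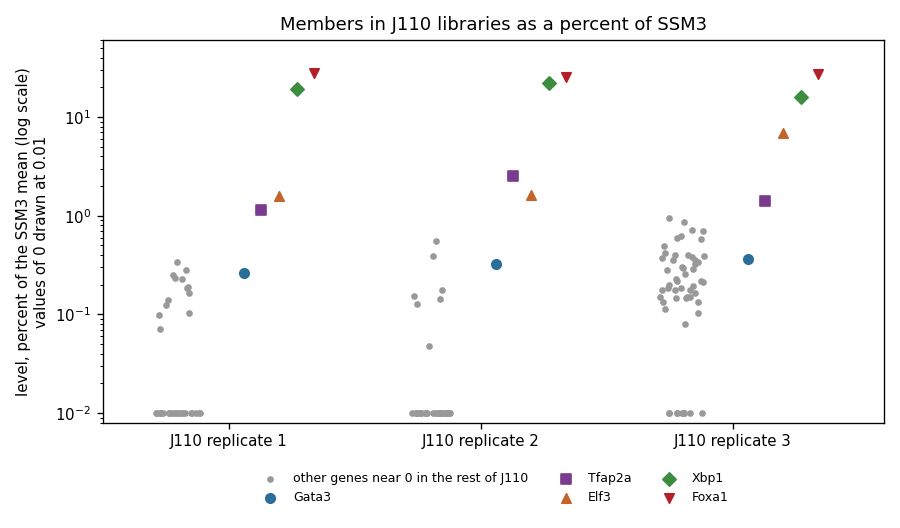
Level in each J110 library as a percent of the SSM3 mean, on a log axis, for 5 of the transcription factors (coloured) and for other genes with at least 100 CPM in SSM3 and at most 3 counts in each remaining J110 library (grey, values of 0 drawn at 0.01). Foxa1 and Xbp1 lie above 15%, Tfap2a and Elf3 above 1%, and Gata3 between 0.260% and 0.362%, near the upper grey points.

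Foxa1 (ENSMUSG00000035451, chromosome 12 from 57540628 to 57546916, reverse strand), the pioneer factor that gives the estrogen receptor access to chromatin, was counted in both lines. There were 339, 302 and 309 counts in J110 and 1122, 1080 and 1152 in SSM3. The 3 libraries of each line were tight, and the lines did not overlap. Mean levels were 63.2 ± 3.02 CPM for J110 and 236 ± 11.9 CPM for SSM3 (SD, n = 3 each), which gave a log2 fold change of 1.90 (SE 0.082, edgeR adjusted p = 2.50e-12), or 3.74-fold. J110 cells thus held from 25.3% to 27.7% of the SSM3 level of Foxa1, against at most 0.362% of that of Gata3.

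Xbp1 (ENSMUSG00000020484, chromosome 11 from 5520659 to 5525893, forward strand) encodes a factor of the unfolded protein response that enlarges the secretory apparatus and is abundant in estrogen receptor-positive tumours. Counts were 328, 372 and 253 in J110 and 1511, 1492 and 1721 in SSM3. J110 replicate 3 was the lowest of its line and the J110 spread was 16.4% of the mean, but no J110 library came near an SSM3 library. Mean levels were 63.2 ± 10.4 CPM for J110 and 332 ± 13.4 CPM for SSM3 (SD, n = 3 each), with a log2 fold change of 2.39 (SE 0.10, edgeR adjusted p = 1.81e-12), or 5.24-fold. A count per gene does not tell the spliced, active form of Xbp1 from the unspliced one.

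Myb (ENSMUSG00000019982, chromosome 10 from 21124935 to 21160984, reverse strand), which encodes c-MYB, a factor of blood progenitors that is also expressed in estrogen receptor-positive luminal cells, had no count in any J110 library. SSM3 libraries held 412, 439 and 532 counts, or 96.9 ± 7.76 CPM (SD, n = 3). Measured against 3 counts per J110 library, Myb stood at least 155-fold above J110 in SSM3, with an edgeR adjusted p = 1.02e-13. Leukocytes also express Myb, and of the 10 leukocyte markers 7 were at the floor in both lines. Ptprc, which encodes the pan-leukocyte antigen CD45, had 0, 2 and 0 counts in SSM3, Cd3e and Itgam had none there, and the summed level of the 10 markers lay between 14.7 and 17.6 CPM in SSM3 and between 29.2 and 37.0 CPM in J110, most of it on Csf1r and Cd68.

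Spdef (ENSMUSG00000024215, chromosome 17 from 27714352 to 27728955, reverse strand), an ETS factor of luminal and goblet cells, had no count in J110 and 1, 0 and 0 counts in SSM3. Both lines were at the floor, so no difference was detectable at this depth.

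Elf3 (ENSMUSG00000003051, chromosome 1 from 135253575 to 135258568, reverse strand) was the one epithelium-specific ETS factor with counts above the floor. It had 1, 1 and 4 counts in J110 and 53, 65 and 54 in SSM3. The SSM3 libraries lay together, and of the 6 counts in J110, 4 fell in replicate 3, the J110 library with the most counts on genes of the other line, whose part here was not tested. The log2 fold change was 4.83 (SE 0.39, edgeR adjusted p = 7.82e-09), and 5.77 without J110 replicate 3 (adjusted p = 1.51e-07). The ratio of summed counts per library size was 30.3, with exact 95% limits of 13.6 and 83.7 that cover counting error only.

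Elf5 (ENSMUSG00000027186, chromosome 2 from 103411688 to 103450989, forward strand) and Ehf (ENSMUSG00000012350, chromosome 2 from 103263433 to 103303278, reverse strand) are neighbours, 108410 bases apart with no annotated protein-coding gene of the table between them. Elf5 had 1, 2 and 1 counts in J110 and none in SSM3. Ehf had 1, 0 and 0 counts in J110 and 1, 1 and 3 in SSM3. Both were at the floor in both lines. Cat, the gene beyond Elf5, which encodes catalase, was well counted in J110 with 408, 399 and 485 counts and at the floor in SSM3 with 3, 1 and 1, at least 129-fold lower.

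Tfap2a (ENSMUSG00000021359, chromosome 13 from 40715302 to 40738376, reverse strand) encodes AP-2α, a factor of epidermis, neural crest and mammary epithelium. It had 7, 15 and 8 counts in J110 and 547, 565 and 557 in SSM3. The SSM3 libraries were within a narrow range, with a spread of 5.0% of the mean, while the few J110 counts spread by 42.9%, with replicate 2 the highest. The log2 fold change was 5.86 (SE 0.16, edgeR adjusted p = 1.06e-14), from 2.0 ± 0.856 to 118 ± 5.88 CPM (SD, n = 3 each). At 1.15%, 2.52% and 1.42% of the SSM3 mean, Tfap2a stood above the summed level of the other line's genes in each J110 library.

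Tfap2c (ENSMUSG00000028640, chromosome 2 from 172549593 to 172558622, forward strand), which encodes AP-2γ, a factor placed upstream of Esr1 in luminal cells, had no count in J110 and 4, 6 and 9 counts in SSM3. It did not reach the filter on low counts, and stood at least 2.11-fold higher in SSM3 against 3 counts per J110 library. When every gene with a count was kept, the adjusted p of Tfap2c was 3.95e-05 from edgeR's test, and DESeq2 gave 0.00192. The level of 1.32 ± 0.452 CPM (SD, n = 3) was near the floor, so the size of the difference is uncertain.

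Since the strand setting of the counting is not given in the sources used here, genes that share exons with a factor bear on its value. The 3 antisense genes that share exons with Tfap2a (Gm47061, Gm26688 and Gm47067) together held from 34.4% to 36.3% as many counts as Tfap2a in SSM3, and 1 count in all of J110. For Gata3, its antisense gene Gm13256 and the gene 9230102O04Rik on the same strand together held from 3.24% to 6.50% as many counts in SSM3 and 8 counts in all of J110. The antisense genes of Myb and Elf3 had at most 2 counts in any library. Foxa1, Xbp1, Spdef, Elf5, Ehf and Tfap2c share no exon with another annotated gene. By these shares Tfap2a is the most exposed in SSM3, if the counting ignored strand. In J110 the order differed, with 1 count beside 30 on Tfap2a, 8 beside 49 on Gata3 and 2 beside 6 on Elf3. Whether the counts of a factor include reads from the genes that share its exons was not tested.

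Promoter sequence was examined because the factors counted in SSM3 were higher together. RefSeq windows of 300 bases on GRCm38.p6, from 250 bases before to 50 after a transcription start, were found for 8 of the 10 factors, as 10 windows, and not for Ehf and Tfap2c. On both strands they were searched for GATAA (GATA factors), TGTTTAC (FOXA), CCGGAAGT (ETS), GCCNNNGGC (AP-2), TGACGTGG (XBP1) and AACGG (MYB). The window of Gata3 held 3 matches to the AP-2 letters, where 16.6% of all 32851 windows hold at least 1, and those of Foxa1 and Myb held 1 match each to the FOXA letters, which 3.65% of all windows hold. These windows are shown because both the genes and the matched factors, AP-2α and FOXA1, were counted in SSM3. The first 2 sequences are the 250 bases before the start, and the third is the match in Myb, which lies 34 bases after its start, with its flanks. Capitals mark the matched letters.
Gata3, chr2:9878601-9878850, reverse strand: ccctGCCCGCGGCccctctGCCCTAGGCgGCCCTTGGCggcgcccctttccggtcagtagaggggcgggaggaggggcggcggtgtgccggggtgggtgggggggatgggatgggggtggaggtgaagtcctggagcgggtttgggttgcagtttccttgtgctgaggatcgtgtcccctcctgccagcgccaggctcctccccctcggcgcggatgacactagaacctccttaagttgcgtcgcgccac
Foxa1, chr12:57546112-57546361, reverse strand: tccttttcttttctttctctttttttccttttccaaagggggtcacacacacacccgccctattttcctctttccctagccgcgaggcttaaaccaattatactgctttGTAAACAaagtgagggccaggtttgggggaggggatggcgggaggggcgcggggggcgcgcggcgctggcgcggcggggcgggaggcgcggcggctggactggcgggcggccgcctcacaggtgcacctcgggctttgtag
Myb, chr10:21160935-21160961, reverse strand: tgatggcatcTGTTTACagagttacac

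The other matches lay in the downstream window of Elf5, not printed since Elf5 was at the floor, with 1 to GATAA and 2 to AACGG, which 25.4% and 17.4% of all windows hold. No window of the 8 factors held the ETS or the XBP1 letters, found in 3.89% and 0.676% of all windows. A match is a run of letters and does not show a bound site. The windows also differed in CpG content, with 40 CpG in that of Myb, 26 in Foxa1, 22 in Gata3 and 7 in Spdef, against a median of 7 over all windows.

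Each factor belongs to a family, and the paralogs of the factors were compared next. Of 15 paralogs, 8 were tested, 6 were lower in SSM3 and none was higher, while 39.2% of all genes tested were lower. Of the 8, Gata4, Gata6, Foxa2 and Elf4 reached the filter through the J110 libraries alone, so their direction follows from the filter. Among GATA genes, Gata6 had 97, 87 and 86 counts in J110 and Gata4 had 24, 28 and 28, and both had none in SSM3. GATA4 and GATA6 are factors of endoderm and heart. Against 3 counts per SSM3 library, Gata6 was at least 26.9-fold and Gata4 at least 7.99-fold lower in SSM3, and Gata2 had 11, 7 and 9 counts in J110 and at most 1 in an SSM3 library. The leading GATA gene by count was therefore Gata3 in SSM3 and Gata6 in J110.

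In the FOXA family Foxa1 was counted in both lines and Foxa2, an endodermal pioneer factor, had 63, 47 and 44 counts in J110 and none in SSM3, at least 15.3-fold lower. In the MYB family, Mybl1 was lower in SSM3, at a log2 fold change of -1.99 (SE 0.22, edgeR adjusted p = 4.28e-07). Mybl2, a factor of dividing cells, had 187, 176 and 152 counts in J110 and 142, 132 and 147 in SSM3, and its log2 fold change of -0.21 (SE 0.12) did not pass the test (adjusted p = 0.118). Among ETS genes Elf4, a factor of lymphoid and endothelial cells, had 114, 101 and 98 counts in J110 and 1, 0 and 0 in SSM3, and Elf2 had a log2 fold change of -0.99. Elf1 did not pass the test, with 49.98 ± 5.41 CPM for J110 and 53.6 ± 4.22 CPM for SSM3 (SD, n = 3 each), and the log2 fold change was 0.10 with a standard error of 0.11. The other AP-2 genes Tfap2b, Tfap2d and Tfap2e were at the floor in both lines.

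**Figure D3:**
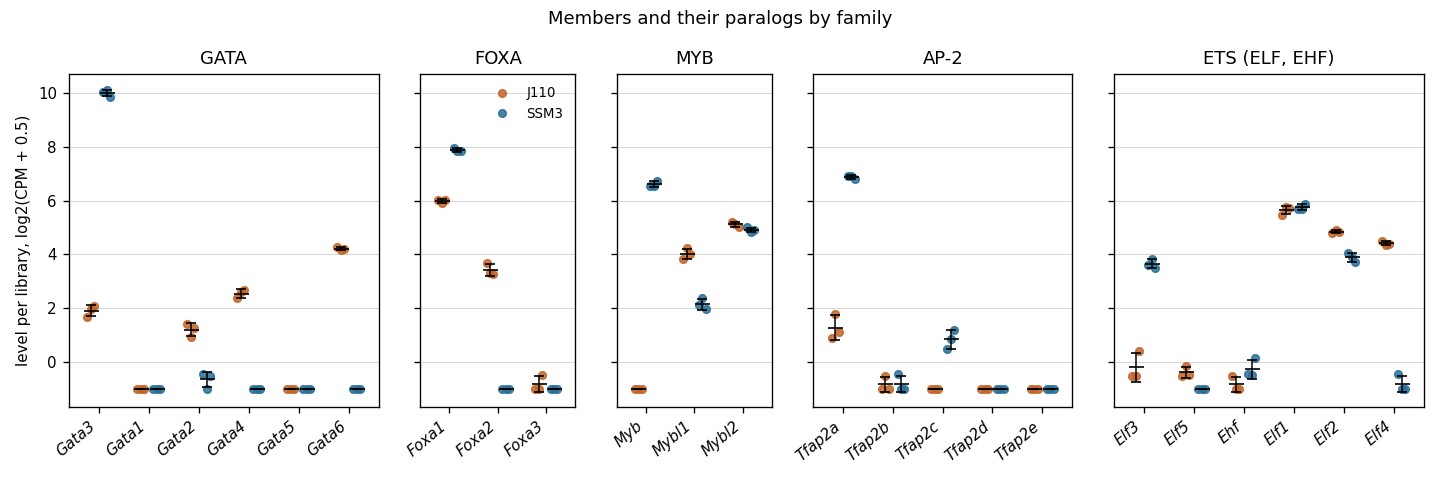
Levels of the factors and their paralogs in each library, by family, on a log2 scale of CPM plus 0.5, with J110 in orange, SSM3 in blue, and black bars for the mean and SD of 3 libraries on that scale. Gata3, Myb, Tfap2a and Elf3 are high in SSM3, while Gata4, Gata6, Foxa2 and Elf4 are counted in J110 and near the bottom in SSM3.

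Partners and cofactors of the factors went both ways. Of 13, all were tested, 6 were higher and 6 lower in SSM3, beside 38.6% and 39.2% of all genes tested, with 3 of the 13 past the filter through SSM3 alone and 2 through J110 alone. Trps1, an atypical GATA factor that represses, had 3, 1 and 16 counts in J110 and 2886, 3301 and 3569 in SSM3, a log2 fold change of 8.98 (SE 0.23). Cited1, a coactivator of the estrogen receptor, had 5, 2 and 14 counts in J110 and 3200, 3049 and 3390 in SSM3, a log2 fold change of 8.90 (SE 0.19). In both genes most of the J110 counts fell in replicate 3, as they did for Elf3. The AP-2 coactivator Cited4 had no count in J110 and was at least 14.7-fold higher in SSM3.

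Lower in SSM3 were Zfpm2, which encodes FOG2, the partner of GATA4 and GATA6, with 69, 54 and 55 counts in J110 and none in SSM3, and Lmo4, a LIM cofactor, with 577, 531 and 478 counts in J110 against 15, 7 and 12. Zfpm2 was at least 17.7-fold lower, and Lmo4 had a log2 fold change of -5.45 (SE 0.16). Tle3, a corepressor found with FOXA1, was lower by a log2 fold change of -2.22. Cited2, the other AP-2 coactivator listed, had a log2 fold change of -2.14, so the coactivators Cited2 and Cited4 moved in opposite directions. The AP-2 inhibitors Kctd1 and Kctd15 were both higher in SSM3, with log2 fold changes of 2.70 and 2.51. Ldb1 had 131, 80 and 18 counts in SSM3, an uneven set that overlapped J110, and its call (adjusted p = 0.0304 from edgeR's test) was lost with DESeq2, with library sizes alone, and without any one of J110 replicates 1, 2 and 3 or SSM3 replicate 2.

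Of 23 other transcription factors of luminal or epithelial cells, 20 were tested, of which 14 were higher and 5 lower in SSM3, beside 38.6% and 39.2% of all genes tested. Their median log2 fold change was 4.28, or 4.11 with genes at the floor set to their bound, against -0.014 over all genes tested, and 12 of the 20 passed the filter through SSM3 alone. Pgr, which encodes the progesterone receptor, was at least 587-fold higher, and Tbx3, a T-box factor of the hormone-sensing lineage, at least 133-fold higher with 0, 0 and 2 counts in J110 and 369, 383 and 431 in SSM3. Msx2 was at least 80.6-fold higher but uneven in SSM3, with 323, 293 and 87 counts. The receptor gene Esr1 had a log2 fold change of 3.48 (SE 0.24).

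The 5 that were lower, Id2, Runx1, Klf4, Cbfb and Klf5, were counted in both lines, with log2 fold changes from -2.83 to -1.002. Id2, which is needed for alveolar growth, had a log2 fold change of -2.83 (SE 0.11), and Runx1, a factor of luminal and basal cells that binds DNA with CBFB, one of -2.80 (SE 0.13). Cebpb, an alveolar factor, differed by a log2 fold change of -0.14 (SE 0.13) and its libraries overlapped. Of 15 basal or mesenchymal transcription factors, 7 were tested and all 7 were lower in SSM3, beside 39.2% of all genes tested, with a median log2 fold change of -4.34, or -3.81 with bounds, and 5 of the 7 passed the filter through J110 alone. Snai2 had 227, 262 and 237 counts in J110 and 0, 1 and 0 in SSM3, at least 72.4-fold lower, and Zeb1, which represses epithelial genes, was at least 42.1-fold lower, as was Prrx1, a mesenchymal factor, at least 14.0-fold. Trp63, the factor of basal cells, was not tested and had no count in J110 and 6, 7 and 9 in SSM3.

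Markers of other cell types did not all follow the direction of those factors. Of 9 basal or myoepithelial markers, 3 were tested, and Krt14, a basal keratin, and Cdh3, which encodes P-cadherin, were higher in SSM3, while Procr was lower. Krt14 had 8, 9 and 5 counts in J110 and 35, 14 and 35 in SSM3, and Cdh3 had 2, 2 and 3 against 57, 33 and 47. Procr had 685, 731 and 607 counts in J110 and 0, 4 and 0 in SSM3. Krt14 and Cdh3 passed the filter through SSM3 alone and Procr through J110 alone, so the direction of each follows from the filter, and 38.6% of all genes tested were higher and 39.2% lower.

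Of 8 fibroblast markers only Dcn, which encodes the matrix protein decorin, was tested, with 0, 1 and 12 counts in J110 and 6643, 6698 and 6712 in SSM3. Its log2 fold change was 10.63 (SE 0.24), and most of its J110 counts fell in replicate 3. Of 6 endothelial markers, Cdh5, the VE-cadherin gene, had 836, 790 and 856 counts in J110 and 0, 2 and 0 in SSM3, and Vwf had 1, 1 and 4 against 21, 17 and 16. The other 4 were not tested. Dcn and Vwf passed the filter through SSM3 alone and Cdh5 through J110 alone, so the direction of each follows from the filter. The fibroblast markers summed to between 1.54 and 4.38 CPM in J110 and between 1337 and 1480.1 CPM in SSM3, nearly all of it on Dcn, while Col1a1, Col1a2, Col3a1, Lum and Pdgfrb had no count in SSM3. None of 6 erythroid markers was tested. All 10 luminal markers were tested and 9 were higher in SSM3, beside 38.6% of all genes tested, with 4 of the 10 past the filter through SSM3 alone. Among them were Prom1, at least 120.4-fold, and Cldn3, with a log2 fold change of 9.19 (SE 0.24).

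**Figure D4:**
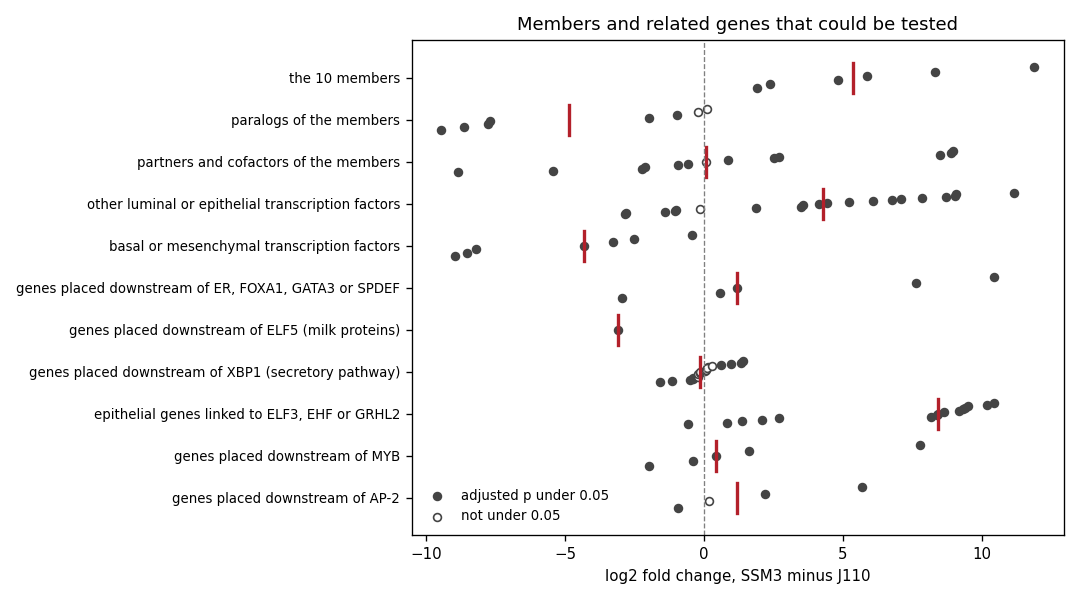
Log2 fold change, SSM3 minus J110, of each gene that could be tested in the 10 factors and 10 lists of related genes, with filled points for an adjusted p under 0.05, red bars for list medians and a dashed line for the median of all genes tested. Luminal factors and epithelial genes lie mostly to the right, basal or mesenchymal factors and paralogs to the left, and secretory pathway genes on both sides of the dashed line.

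Genes commonly placed downstream of the factors were then read from the same test. Of 20 secretory pathway genes linked to XBP1, 19 were tested. Of these, 5 were higher, 6 were lower and 8 did not pass, where 77.9% of all genes tested were called. Their median log2 fold change was -0.15, beside the 2.39 of Xbp1 itself. Ern1, which encodes the sensor IRE1α that splices Xbp1 mRNA, was higher with a log2 fold change of 1.40 (SE 0.11), as were the translocon gene Sec61a1 with 1.33 (SE 0.068) and the chaperone gene Hyou1 with 0.97 (SE 0.092). Creld2, Sec24d and Dnajc3 were lower, with log2 fold changes of -1.57, -1.14 and -0.49. Dnajb9, a chaperone gene that responds closely to spliced XBP1, had 83, 79 and 69 counts in J110 and 66, 75 and 87 in SSM3, a log2 fold change of 0.060 (SE 0.15). Edem1, also linked to XBP1, was lower by a log2 fold change of -0.38, a call lost with library sizes alone. The call of Hspa5, at a log2 fold change of 0.16 (adjusted p = 0.0407 from edgeR's test), was lost under the replicate block and without any one of J110 replicates 1, 2 and 3 or SSM3 replicates 1 and 2. The call of Dnajb11, at -0.21 (adjusted p = 0.0305 from edgeR's test), was lost with DESeq2 and without J110 replicate 1, SSM3 replicate 2 or SSM3 replicate 3.

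Of 16 epithelial genes linked to ELF3, EHF or GRHL2, 15 were tested, and 14 were higher in SSM3, beside 38.6% of all genes tested. Of the 15, 8 passed the filter through SSM3 alone. Krt8, Krt18, Krt19, Epcam, Cdh1 and Cldn3 are in this list and also among the luminal markers above, so the counts of the lists are not separate. Rab25, which sorts proteins in epithelial cells, was at least 204-fold higher, Cldn7 at least 173-fold, and Epcam had a log2 fold change of 9.52 (SE 0.19). Krt18 went the other way with a log2 fold change of -0.56. These genes were high in SSM3 while Ehf was at the floor there, and Grhl2 had 0, 1 and 2 counts in J110 and 129, 127 and 92 in SSM3.

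Of 14 genes linked to the estrogen receptor, FOXA1, GATA3 or SPDEF, 5 were tested, with 4 higher and 1 lower, where all genes tested split into 38.6% and 39.2%. Of the 5, 2 passed the filter through SSM3 alone and 1 through J110 alone, which sets their direction. Mlph, a gene of vesicle transport, had a log2 fold change of 1.19 (SE 0.083). Prlr, the prolactin receptor gene, had 0, 1 and 5 counts in J110 and 2489, 2910 and 3036 in SSM3, a log2 fold change of 10.44 (SE 0.21), and Wnt4, a progesterone target, one of 7.62 (SE 0.15). For Prlr, most of the J110 counts fell in replicate 3. Greb1, an estrogen target in human cells, was lower in SSM3, at a log2 fold change of -2.95 (SE 0.44) from 18, 32 and 26 counts in J110 and 5, 2 and 2 in SSM3. Areg, an estrogen target that encodes a ligand of the EGF receptor, had 1454, 1357 and 1452 counts in J110 and 2501, 2111 and 1390 in SSM3, which overlapped, and its call (log2 fold change 0.59, adjusted p = 0.00363 from edgeR's test) was lost with DESeq2. Tff1, an estrogen target in human tumours, was not tested and had 10, 9 and 5 counts in J110 and none in SSM3, at least 2.37-fold lower. Of the other untested genes, Cldn8 had no count in J110 and 5, 8 and 13 in SSM3. Tspan1 had 2, 3 and 1 counts in J110 and 6, 8 and 13 in SSM3, so both were higher in SSM3. Car12 was lower there, with 7, 5 and 6 counts in J110 and 3, 3 and 3 in SSM3. Agr2, Agr3, Tff2 and Tff3, secretory genes that SPDEF activates in goblet cells or that mark human luminal tumours, had no count in any library, as Spdef itself had 1 in all.

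Milk protein genes, which ELF5 activates with STAT5, had few counts in either line. Wap, Csn1s1, Lalba and Glycam1 had no count in any library, and of 8 genes only Csn3 was tested, lower in SSM3 with 52, 47 and 39 counts in J110 and 8, 2 and 5 in SSM3. Csn3 passed the filter through J110 alone, which sets its direction, and 39.2% of all genes tested were lower. The casein genes Csn1s2a, with 8, 4 and 5 counts, Csn1s2b, with 2, 3 and 3, and Csn2, with 2, 0 and 4, were counted in SSM3 and not in J110, too low to be tested. Both STAT5 genes were higher in SSM3, Stat5a with a log2 fold change of 4.42 (SE 0.14) and Stat5b with 1.86 (SE 0.12). Elf5 was at the floor in both lines.

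Of 6 genes linked to MYB, 5 were tested, with 3 higher and 2 lower in SSM3, beside 38.6% and 39.2% of all genes tested, and Cxcr4 passed the filter through SSM3 alone. Cxcr4, a chemokine receptor gene, had no count in J110 and was at least 8.91-fold higher, and Ccne1, a cyclin gene, had a log2 fold change of 1.62 (SE 0.13), and Ccnb1 one of 0.44 (SE 0.072). Myc and Bcl2 were lower, with log2 fold changes of -1.98 (SE 0.21) and -0.41 (SE 0.13), and the call of Bcl2 was lost with library sizes alone and without J110 replicate 3 and SSM3 replicate 2 together. Kit had no count in any library. Of 6 genes linked to AP-2, 4 were tested, with 2 higher and 1 lower beside 38.6% and 39.2% of all genes tested, and Erbb3 passed the filter through SSM3 alone. Erbb3 and Erbb2, which encode partner receptors of the EGF receptor family, were higher with log2 fold changes of 5.68 (SE 0.22) and 2.19 (SE 0.16). Cdkn1a was lower with a log2 fold change of -0.95 (SE 0.090).

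The genes next to each factor on the chromosome were read to see whether the difference extended beyond it. Of the genes on either side of Gata3, Taf3 differed by a log2 fold change of 0.32 (SE 0.10), and Celf2, which lies 2347515 bases away, was lower in SSM3, at a log2 fold change of -7.17. The gene 4930412O13Rik, which overlaps Gata3 on the opposite strand without sharing exon bases, had 0, 0 and 1 counts in J110 and 49, 51 and 52 in SSM3, and was higher there as Gata3 was. Next to Foxa1, Mipol1 differed by 0.10 (SE 0.18) and did not pass the test, while Ttc6 was higher with a log2 fold change of 4.33 (SE 0.29). Ccdc117, which lies 2994 bases from Xbp1, was higher by a log2 fold change of 2.53 (SE 0.14), close to that of Xbp1, and Znrf3 on its other side differed by 0.24 (SE 0.14) and did not pass. Next to Myb, Hbs1l had 0.034 (SE 0.10) and did not pass, and Ahi1 was lower with a log2 fold change of -1.31. Bmp7, on one side of Tfap2c, had 1226, 1172 and 1222 counts in J110 and 0, 3 and 0 in SSM3, at least 361-fold lower. Rnpep next to Elf3 and Gcnt2 next to Tfap2a were higher in SSM3, by log2 fold changes of 1.36 (SE 0.11) and 0.66 (SE 0.10). Next to Spdef, D17Wsu92e was higher by 0.95 (SE 0.081), and next to Ehf, Apip was lower with a log2 fold change of -1.03 (SE 0.15). Pacsin1, Gpr37l1, Fam209 and Ofcc1, the neighbours that were not tested, had at most 4 counts in any library. The neighbours thus did not share one direction with the factors.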

How the data were processed

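Gene counts per library were deposited by the authors. Per the labels, reads from 3′ libraries (QuantSeq) were trimmed with cutadapt 2.1, aligned to mm10 with HISAT2 2.0.4 and counted per gene with featureCounts of Subread 2.0.0. The strand setting is not given in the sources used here. Libraries were grouped by the cell line in the labels, 3 per line, and p-values measure the spread between these 6 libraries. The 10 factors and the lists of related genes were chosen with earlier results of these data known.

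Gene names and mm10 positions came from the GENCODE M21 annotation, which matched 52489 of 52636 identifiers. SSM3 was compared with J110 across all genes in edgeR 4.0.16 (R 4.3.3) with TMM factors, filterByExpr, the quasi-likelihood test and Benjamini-Hochberg adjustment, called at 0.05, and 12284 genes were tested. CPM used TMM-scaled library sizes, and standard errors are the log2 fold change over the square root of F. A line at 3 counts or fewer in each library was set to 3 counts for a bound. Intervals cover counting error only. The genes named were all 10 factors, the chromosomal neighbours and genes sharing exons, and from each list up to 3 genes that were furthest up and 3 furthest down among those called with no overlap, with the genes that went against most of their list. Others, among them Dnajb9, Mybl2, Elf1, Stat5a, Stat5b, Cebpb, Trp63, Ldb1 and Hspa5, were named for their role after their values were seen. Cldn8, Tspan1 and Car12 were named, also after their values were seen, as untested genes of their list. Same-numbered replicates of the lines did not deviate together, with correlations from 0.0118 to 0.0268, so the numbers were not used as pairs. Alternatives were DESeq2 1.42.0, voom in limma 3.58.1, a test against a 2-fold change, other scalings, filters and thresholds, a replicate block, and each library left out. Some items are not reported here.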

Additional observations from a re-analysis of the deposited data

How the results depend on the processing

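The 6 tested factors kept their direction and their call under all alternatives that tested them. Their log2 fold changes lay between 8.17 and 8.48 for Gata3, 1.85 and 2.08 for Foxa1, 2.27 and 2.57 for Xbp1, 9.92 and 11.98 for Myb, whose fitted value depends on the prior count, 4.49 and 5.77 for Elf3, and 5.63 and 6.25 for Tfap2a. With at least 10 counts required in every library, 9686 genes were tested, only 3 of the factors were among them, and 47 related genes were called in place of 95, since fewer genes were tested. A test against a 2-fold change called 4272 genes (2094 higher, 2178 lower) in place of 9566. Leaving out 1 library at a time gave 9275 to 9572 calls, 6 factors each time and 94 to 97 related genes. With genes at 200 CPM or more, the summed level of the other line's genes was 0.0960% in SSM3 replicate 1 and 0.0343% in SSM3 replicate 3, in place of 0.190% and 0.0870%, and the cause was not tested. SSM3 replicate 2 held the most, 0.415%, and 0.363% at 200 CPM or more. In J110 replicates 1, 2 and 3 the value at 200 CPM or more was 0.0549%, 0.0241% and 0.250%, and Gata3 stayed above it in each. Scaling by library size alone moved the median over all genes, on the log2 scale, from -0.014 to 0.16. A replicate block gave 9481 calls and changed no call of a factor, and among related genes it lost that of Hspa5. Without J110 replicate 3 and SSM3 replicate 2, an alternative chosen after seeing the data, 8881 genes, 6 factors and 93 related genes were called. At this depth Spdef, Elf5 and Ehf could not be told from absent, and the call of Tfap2c depended on the filter.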
